A study of Homo sapiens with 24 samples.

Results

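The interleukin-1 family was followed here at the RNA level in MDA686TU cells, a human head and neck squamous cell carcinoma line, after treatment with the green tea catechin EGCG, the stilbene resveratrol, or both. The 10 genes were chosen by symbol from the 60617 genes in the count table: the ligands IL1A, IL1B, IL18, IL33 and IL36G, the antagonists IL1RN and IL36RN, and the receptor chains IL1R1, IL1R2 and IL1RAP. The rule uses symbols alone, but it was drawn up with earlier results of these data known. The 4 groups of 6 libraries each were untreated control cells (NT), cells with 40 µM EGCG, cells with 15 µM resveratrol, and cells with both agents at these doses (Combination), all for 24 h. All groups are the same single cell line, grown without immune or stromal cells. Resveratrol was taken from a DMSO stock and EGCG from water, and the methods do not say whether untreated cells received DMSO, so resveratrol and its solvent cannot be told apart in any comparison of cells with and without it. The labels do not say that replicates were separate cultures, so the p-values measure the spread among these libraries.

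As background, IL-1α and IL-1β signal through IL1R1 together with the shared accessory chain IL1RAP, which leads through MyD88 and IRAK kinases to NF-κB and MAP kinases. IL1RN encodes the receptor antagonist, which binds IL1R1 without signalling, and IL1R2 encodes a decoy receptor that binds ligand but lacks a signalling domain. IL-1β and IL-18 are made as precursors that inflammasome caspase-1 cleaves, whereas the IL-1α precursor is already active and serves as an alarmin when squamous cells are damaged. IL-36γ is an epithelial member of the family, and IL36RN encodes its antagonist.

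Resveratrol lowered IL1A, IL1B, IL1RN and the decoy receptor IL1R2 and raised IL18 and IL1R1. EGCG alone changed 1 of the 9 genes that could be tested, IL1R2, which was higher and passed narrowly. With both agents, IL1A and IL1B remained below untreated cells but were higher than with resveratrol alone. IL1RN also remained below untreated cells, and IL18 and IL1R1 were above them. IL36G, which had few counts, was called higher with both agents, but its libraries overlapped those of untreated cells.

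Library totals ran from 7034872 to 11735574 counts, and 15476 genes had enough counts to be tested. Of the 12 squamous epithelial markers checked, all 12 were tested. Their summed level was 18125 to 19252 CPM (counts scaled to the library total) in NT and 17777 to 19444 CPM with EGCG. Both groups with resveratrol lay wholly below these, at 16320 to 17078 CPM with resveratrol and 15936 to 17388 CPM with Combination. None of the 10 leukocyte and macrophage markers passed the filter, 3 (MS4A1, AIF1 and TYROBP) had 0 counts throughout, and their sum was at most 2.06 CPM. Of the 10 fibroblast and endothelial markers 3 passed, and the sum of the list was 103 to 125 CPM with EGCG, 127 to 152 CPM in NT, 159 to 186 CPM with resveratrol and 184 to 210 CPM with Combination. COL1A1 held most of the counts of this list, with 31872 summed over all libraries, and each of its other genes had between 2 and 496. The part of these transcripts in the results was not tested. The share of mitochondrial transcripts separated the libraries numbered 1 to 3 (at most 0.326% of counts) from those numbered 4 to 6 (at least 0.448%) in every group. No label names a batch, and the term for these sets of replicates in the model comes from that division.

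A group of 5 genes lies within 360 kb on the long arm of chromosome 2 (GRCh38, GENCODE v44). They are IL1A (chr2:112773925-112784493, minus strand), IL1B (chr2:112829751-112836816, minus strand), IL36G (chr2:112973203-112985658), IL36RN (chr2:113058638-113065382) and IL1RN (chr2:113099315-113134016). The receptor genes IL1R2 (chr2:101991960-102028544) and IL1R1 (chr2:102064544-102179874) sit side by side within 188 kb on the same chromosome. IL1RAP is on chromosome 3 (190514051 to 190659750), IL33 on chromosome 9 (6215786 to 6257983) and IL18 on chromosome 11 (112143253 to 112164096, minus strand).

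The bases just before IL1A and IL1B are shown because these neighbours gave the largest falls and moved together. They are from RefSeq (GRCh38.p14), on the strand of the gene, and stop at the first base of the annotated gene. Capitals mark matches to any of 6 motifs, searched on both strands.
IL1A, chr2:112784494-112784743, minus strand: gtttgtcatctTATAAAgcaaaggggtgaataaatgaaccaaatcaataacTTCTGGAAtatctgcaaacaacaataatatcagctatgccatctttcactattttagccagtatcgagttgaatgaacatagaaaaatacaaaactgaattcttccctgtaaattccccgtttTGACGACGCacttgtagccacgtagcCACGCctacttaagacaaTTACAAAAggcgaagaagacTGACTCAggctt
IL1B, chr2:112836817-112837029, minus strand: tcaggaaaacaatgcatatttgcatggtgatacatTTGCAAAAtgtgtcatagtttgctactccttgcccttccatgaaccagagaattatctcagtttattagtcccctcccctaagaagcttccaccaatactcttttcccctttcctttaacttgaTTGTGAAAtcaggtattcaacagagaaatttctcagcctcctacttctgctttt

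The IL1A stretch held an AP-1 motif (TGANTCA, in 6.57% of the 35116 windows of 250 bases before RefSeq gene starts), an antioxidant response element (TGACNNNGC, 10.9% of windows), a xenobiotic response element (GCGTG, 32.2%), 2 C/EBP motifs (TTNNGNAA, 33.2%) and the letters TATAAA (10.7%). The TATAAA match lies near the far end of the window. RefSeq holds another IL1A start 93 bases downstream, inside the annotated gene, and its window is not shown. That window lacks TATAAA and the C/EBP match nearest to it. It holds a further AP-1 match, 55 to 49 bases before its own start. The IL1B stretch held only C/EBP matches. It has 213 bases and ends 37 bases before the RefSeq start, so it is shorter than the windows behind these percentages. Neither stretch held the NF-κB motif, which 5.21% of windows did. A match of letters is a description and does not show that a factor binds there.

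The levels differed widely among the genes, and are compared here per length as the FPKM values of the authors. In NT, IL1A was by far the most abundant, at 130 ± 8.65 FPKM (mean ± SD, n = 6). IL18 at 15.3 ± 1.06 and IL1B at 15.0 ± 0.882 followed and did not differ beyond their spread. Next came IL1RN (3.66 ± 0.395), IL1RAP (3.31 ± 0.211) and IL36G (2.94 ± 0.272), where each neighbouring pair lay within the sum of their SDs. IL36RN (2.28 ± 0.349) and IL1R2 (2.27 ± 0.343) were level with each other, and IL1R1 was lowest of the genes with counts at 0.709 ± 0.140. With resveratrol the order changed, since IL18 (21.3 ± 1.07 FPKM) then stood well above IL1B (5.30 ± 0.396 FPKM).

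IL33, an epithelial alarmin, had 0 counts in all 24 libraries. The limit that a count of 0 allows, 3 counts, corresponds to between 0.256 and 0.426 CPM across the libraries. It covers counting error only, and no fold change is given for this gene.

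**Figure D1:**
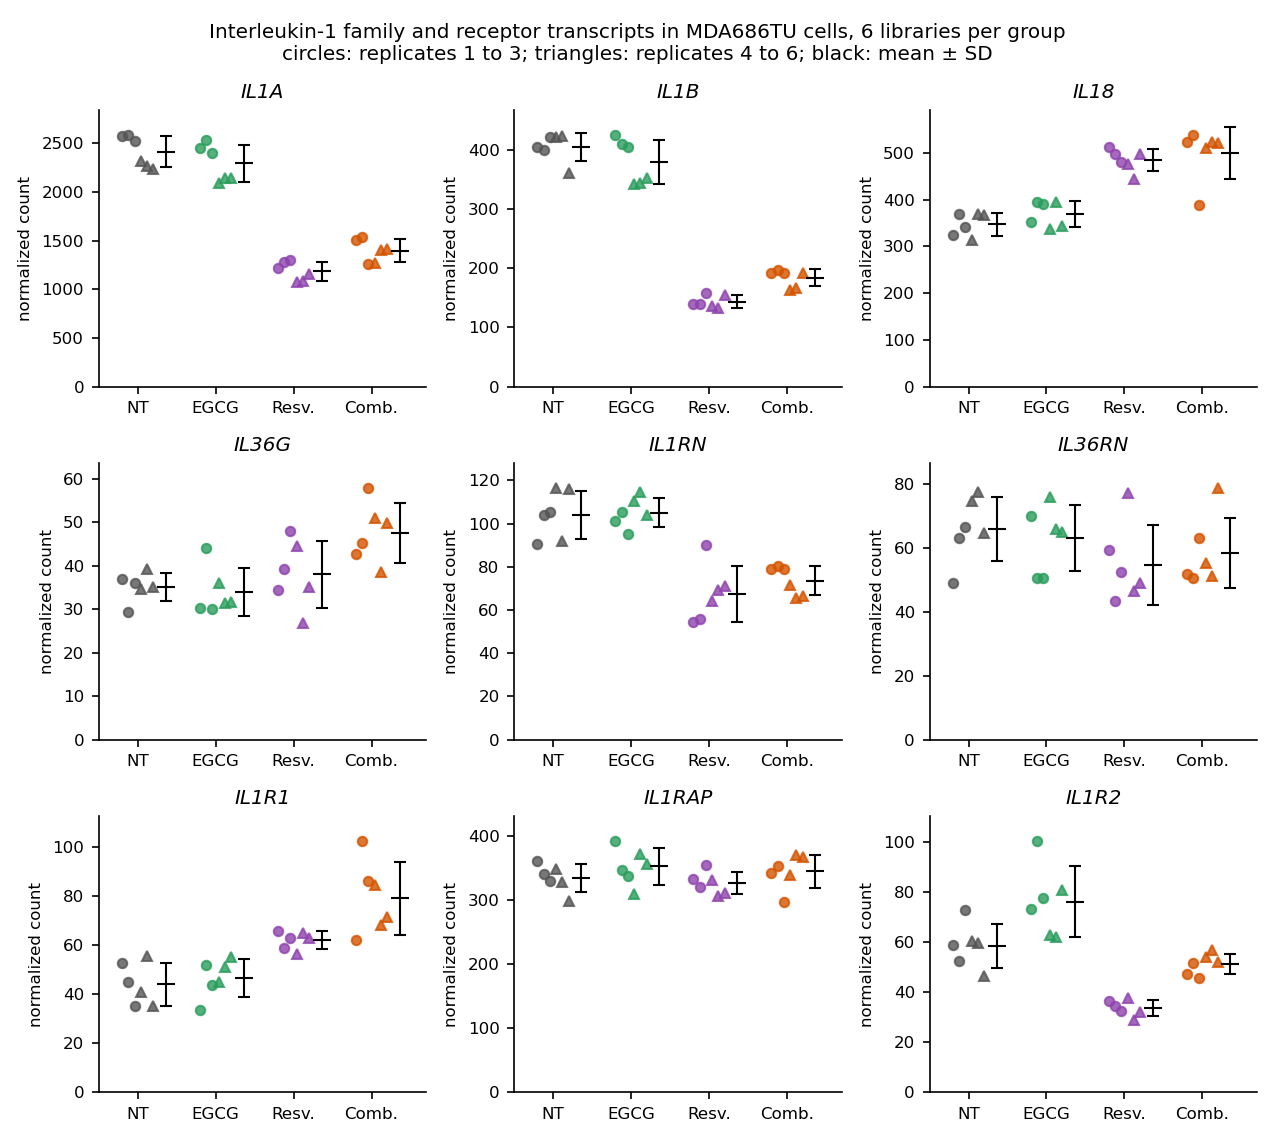
Normalized counts (y axis, linear from 0) of the 9 genes with counts, with 1 point per library (circles for replicates 1 to 3, triangles for 4 to 6) and the mean ± SD of 6 libraries in black, in NT, EGCG, resveratrol and Combination. IL1A and IL1B fell and IL18 and IL1R1 rose with resveratrol, and IL1RAP stayed between 297 and 391 in every library.

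The first question was how each agent alone and the pair of them changed these transcripts relative to untreated cells. Values per library are the authors' normalized counts. Changes are log2 fold changes ± SE from edgeR's quasi-likelihood test over all 24 libraries, with Benjamini-Hochberg (BH) adjustment over the 15476 genes. A gene was called changed when its adjusted p was under 0.1 and its p under 0.05, the limits in the study's methods. The 3 comparisons share the untreated libraries.

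With EGCG, 1 of the 9 genes tested was called, and it was higher, against 2.21% of all genes (1.11% higher and 1.1% lower). With resveratrol 7 of 9 were called (2 higher, 5 lower), against a background of 58% of all genes (29.4% higher and 28.6% lower). With Combination 6 of 9 were called (3 higher, 3 lower), against 60.7% (30.4% higher and 30.3% lower). The shares of resveratrol and Combination are therefore near the background, and the size of the changes is described beside them. Taken without its sign, the median log2 fold change with resveratrol was 0.50 for the 9 genes and 0.20 for all genes. For Combination these medians were 0.49 and 0.22, and for EGCG 0.08 and 0.06. In 6 of the 9 genes the 6 resveratrol libraries did not overlap the 6 NT libraries (31% of all genes), and in 5 of 9 the Combination libraries did not (31.9%). With EGCG none of the 9 was free of overlap (1.58% of all genes).

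**Figure D2:**
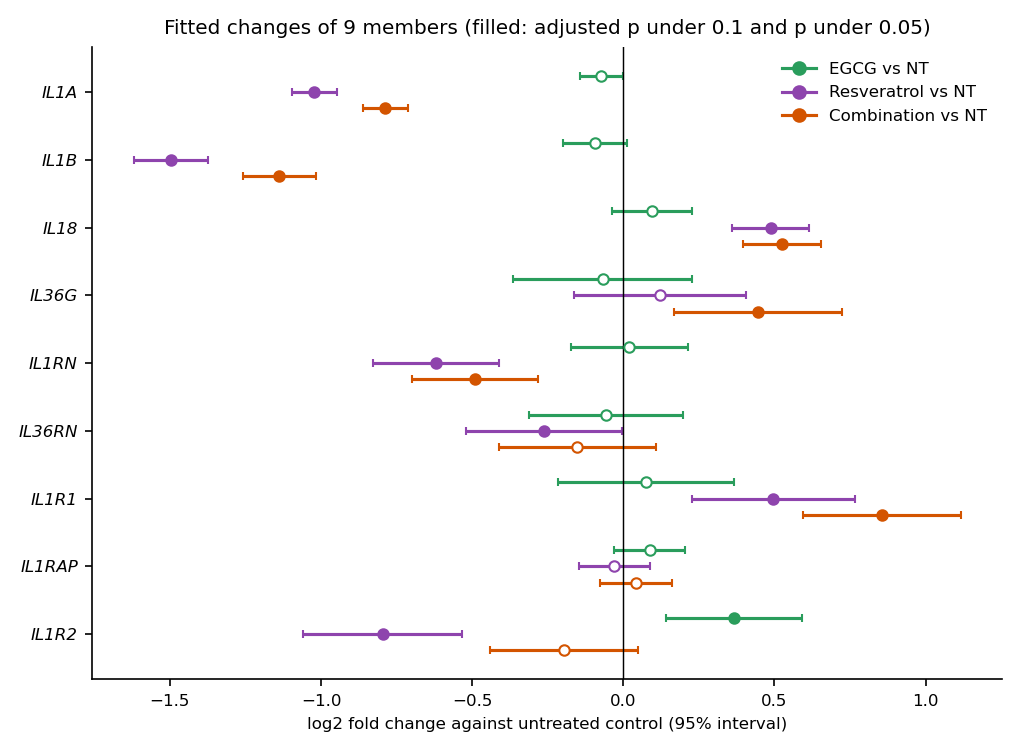
Log2 fold change (x axis) with its 95% interval for each of the 9 genes in EGCG, resveratrol and Combination against NT, from the edgeR fit. Filled points passed the limits. IL1B has the lowest values (-1.497 with resveratrol) and IL1R1 the highest (0.85 with Combination).

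Among the ligands, IL1A, the alarmin IL-1α, lay between 2235 and 2579 normalized counts in NT (median 2416) and between 2093 and 2529 with EGCG (median 2272). It lay between 1072 and 1302 with resveratrol (median 1189) and between 1257 and 1540 with Combination (median 1405). Every library with resveratrol, alone or combined, was below every library without it, and the NT and EGCG libraries overlapped. The log2 fold change against NT was -1.02 ± 0.04 with resveratrol (2.03-fold lower, adjusted p = 1.14e-25, edgeR with BH) and -0.79 ± 0.04 with Combination (adjusted p = 4.63e-22). With EGCG it was -0.07 ± 0.03 (adjusted p = 0.422, edgeR with BH). IL1A was also lower in replicates 4 to 6 than in replicates 1 to 3, by a log2 difference of -0.16 (adjusted p = 3.73e-05, edgeR with BH). Within replicates 1 to 3 and within replicates 4 to 6 the resveratrol change was -1.01 and -1.04.

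IL1B, the inflammasome-processed IL-1β, had the largest change. It lay between 361 and 423 normalized counts in NT (median 413) and between 342 and 424 with EGCG (median 378). It lay between 132 and 159 with resveratrol (median 140) and between 164 and 196 with Combination (median 191). The 3 ranges NT, Combination and resveratrol were separate from one another, and EGCG again overlapped NT. The log2 fold change was -1.497 ± 0.059 with resveratrol (2.82-fold lower, adjusted p = 3.84e-24, edgeR with BH) and -1.14 ± 0.06 with Combination (adjusted p = 1.14e-20). With EGCG it was -0.09 ± 0.05 (adjusted p = 0.504, edgeR with BH), at 0.02 in replicates 1 to 3 and -0.21 in replicates 4 to 6.

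IL18 encodes the other caspase-1 substrate among the ligands and moved the opposite way. It lay between 314 and 369 normalized counts in NT (median 354) and between 337 and 396 with EGCG (median 371). With resveratrol it lay between 444 and 514 (median 490) and with Combination between 388 and 538 (median 523). Both groups with resveratrol were wholly above NT, and 1 Combination library, replicate 3 at 388, fell within the EGCG range. The log2 fold change was 0.49 ± 0.06 with resveratrol (adjusted p = 5.23e-09, edgeR with BH) and 0.52 ± 0.06 with Combination (adjusted p = 8.93e-10). Without Combination replicate 3 the second value was 0.60. The EGCG value was 0.10 ± 0.06 (adjusted p = 0.611, edgeR with BH).

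IL36G, the epithelial ligand IL-36γ, had few counts, between 26 and 66 raw counts in any library. It lay between 29.4 and 39.2 normalized counts in NT (median 35.6), between 30.1 and 44.2 with EGCG (median 31.6), between 26.8 and 48.0 with resveratrol (median 37.2) and between 38.5 and 57.9 with Combination (median 47.6). The Combination range overlapped each of the others, with its lowest library just under the top of NT. Only Combination passed against NT, with a log2 fold change of 0.45 ± 0.13 (adjusted p = 0.00387, edgeR with BH), while resveratrol gave 0.12 ± 0.14 (adjusted p = 0.469). In replicates 1 to 3 alone the Combination value was 0.53 (adjusted p = 0.0286, edgeR with BH), and in replicates 4 to 6 alone it was 0.36 and did not pass (adjusted p = 0.132). An antisense pseudogene, HMGN2P23, overlaps IL36G, and since the strand setting of the counting is not given, reads of the pair cannot be assigned with certainty.

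Of the antagonists, IL1RN had a firm call with resveratrol, and IL36RN was lower by a narrow call that many settings lost. IL1RN, the IL-1 receptor antagonist, lay between 90.3 and 116 normalized counts in NT (median 105) and between 95.1 and 115 with EGCG (median 105). It lay between 54.4 and 89.9 with resveratrol (median 66.7) and between 65.7 and 80.1 with Combination (median 75.2). The highest resveratrol library was just under the lowest NT library, and the Combination range was clear of both NT and EGCG. The log2 fold change was -0.62 ± 0.10 with resveratrol (1.54-fold lower, adjusted p = 1.19e-06, edgeR with BH) and -0.49 ± 0.10 with Combination (adjusted p = 5.12e-05).

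IL36RN, the IL-36 receptor antagonist, ranged from 48.8 to 77.3 normalized counts in NT (median 65.5) and from 43.2 to 77.2 with resveratrol (median 50.6). With EGCG it ranged from 50.5 to 75.8 (median 65.3) and with Combination from 50.6 to 78.5 (median 53.6). All 4 ranges overlapped almost wholly. The resveratrol value of -0.26 ± 0.12 passed narrowly (adjusted p = 0.0712, edgeR with BH), and the Combination value of -0.15 ± 0.12 did not (adjusted p = 0.301). The resveratrol call was lost when any 1 of 11 libraries was left out. Over all libraries left out in turn, the log2 fold change ran from -0.37 to -0.20 and the adjusted p from 0.0135 to 0.191 (edgeR with BH). The call was also lost with DESeq2, with library size alone as the scaling, and in each set of replicates alone.

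The receptor chains split. IL1R1, the signalling receptor, lay between 35.1 and 55.7 normalized counts in NT (median 43.0) and between 33.7 and 55.0 with EGCG (median 47.9). It lay between 56.4 and 65.9 with resveratrol (median 62.8) and between 62.0 and 102 with Combination (median 77.9). Both groups with resveratrol lay above all libraries without it. The log2 fold change was 0.50 ± 0.13 with resveratrol (1.41-fold, adjusted p = 0.00123, edgeR with BH) and 0.85 ± 0.12 with Combination (1.81-fold, adjusted p = 1.62e-07).

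IL1R2, the decoy receptor, lay between 46.5 and 72.9 normalized counts in NT (median 59.4) and between 62.1 and 100 with EGCG (median 75.4). It lay between 28.9 and 37.6 with resveratrol (median 33.4) and between 45.6 and 56.7 with Combination (median 51.8). The resveratrol libraries were separate from and below all others, whereas the Combination libraries overlapped the lower part of the NT range. The log2 fold change was -0.80 ± 0.13 with resveratrol (1.74-fold lower, adjusted p = 8.33e-07, edgeR with BH) and -0.20 ± 0.12 with Combination (adjusted p = 0.155). With Combination it passed when NT replicate 6 was left out (adjusted p = 0.0794, edgeR with BH) and in replicates 1 to 3 alone (-0.35, adjusted p = 0.0852), while in replicates 4 to 6 it was -0.029 (adjusted p = 0.908).

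With EGCG alone IL1R2 was higher by 0.37 ± 0.11 (adjusted p = 0.0755, edgeR with BH), the only call among the 9 genes in that comparison, and the EGCG and NT ranges overlapped. DESeq2 called 0 of the 9, edgeR had 2 of 9 at an unadjusted p under 0.05, and the edgeR call was lost without NT replicate 1, 2 or 6 or EGCG replicate 2, 3 or 6 (adjusted p from 0.0348 to 0.275 over all libraries left out in turn).

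IL1RAP, the accessory chain that IL1R1 and the IL-33 and IL-36 receptors share, was not called in any of the 6 comparisons. With library size alone as the scaling, its value with Combination against NT was 0.13 and passed (adjusted p = 0.0627, edgeR with BH). It lay between 298 and 360 normalized counts in NT (median 335), 308 and 391 with EGCG (median 351), 307 and 354 with resveratrol (median 326) and 297 and 369 with Combination (median 347). The 95% intervals of the log2 fold change against NT were -0.15 to 0.09 with resveratrol and -0.08 to 0.16 with Combination. With EGCG the log2 fold changes of the genes not yet given were 0.02 ± 0.09 for IL1RN, -0.07 ± 0.14 for IL36G, -0.06 ± 0.12 for IL36RN, 0.08 ± 0.14 for IL1R1 and 0.09 ± 0.06 for IL1RAP, and none of them passed.

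The next question was what EGCG added to resveratrol. In Combination against resveratrol, 4 of the 9 genes were higher and 0 lower, against a background of 9.1% of all genes called (4.59% higher and 4.5% lower). The 4 were IL1A, IL1B, IL1R1 and IL1R2. The libraries of the 2 groups did not overlap in 2 of 9 genes, IL1B and IL1R2 (3.2% of all genes). IL1R2 had the largest difference, at 0.60 ± 0.13 on the log2 scale (1.52-fold, adjusted p = 0.00220, edgeR with BH). IL1B was higher by 0.36 ± 0.07 (1.28-fold, adjusted p = 0.000395) and IL1A by 0.23 ± 0.04 (1.18-fold, adjusted p = 3.69e-05). Within replicates 1 to 3 alone IL1B was called (0.40) and IL1R2 was not (0.48, adjusted p = 0.163, edgeR with BH), and within replicates 4 to 6 alone IL1R2 was called (0.72) and IL1B was not (0.31, adjusted p = 0.126). IL1R1 was higher by 0.36 ± 0.12 (adjusted p = 0.0525, edgeR with BH), a call that was lost without resveratrol replicate 2, Combination replicate 2 or Combination replicate 3. IL36G had a difference of 0.32 ± 0.13 that did not pass (adjusted p = 0.137, edgeR with BH), but passed without resveratrol replicate 3, resveratrol replicate 4 or Combination replicate 5. For IL18 the difference was 0.04 ± 0.06, with a 95% interval of -0.08 to 0.16.

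Combination against EGCG is the contrast of adding resveratrol to EGCG. It called 7 of 9 genes, against 58.8% of all genes (29.2% higher and 29.6% lower). IL1R1 (0.78 ± 0.12), IL36G (0.51 ± 0.13) and IL18 (0.43 ± 0.06) were higher, and IL1B (-1.05 ± 0.06), IL1A (-0.71 ± 0.04), IL1R2 (-0.56 ± 0.11) and IL1RN (-0.51 ± 0.10) were lower on the log2 scale. In 5 of the 9 genes the 2 groups did not overlap (27.5% of all genes).

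Whether the EGCG change differed with and without resveratrol was tested by the interaction term, which called 2 of 9 genes, IL1A and IL1B, against 0.51% of all genes. For IL1A the EGCG change was 0.31 ± 0.05 higher on the log2 scale beside resveratrol than alone (adjusted p = 0.000937, edgeR with BH), a call that was lost without the term for the sets of replicates (adjusted p = 0.106). For IL1B it was 0.45 ± 0.08 higher (adjusted p = 0.00341). Each was slightly below NT with EGCG alone, without passing, and above resveratrol with Combination. IL1R2, which was higher with EGCG beside resveratrol and passed only narrowly with EGCG alone, gave 0.24 ± 0.17 and did not pass (adjusted p = 0.751, edgeR with BH). IL1R1 gave 0.28 ± 0.18 (adjusted p = 0.713) and IL36G 0.39 ± 0.19 (adjusted p = 0.571). In replicates 1 to 3 alone the interaction of IL1A was 0.22 and of IL1B 0.38, without a call for either, and in replicates 4 to 6 they were 0.39 and 0.53, both called.

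Ratios of FPKM within a library set agonist against antagonist and receptor against decoy, and they are given as descriptions. IL1R2 to IL1R1 had a median of 2.996 in NT (2.59 to 5.01) and 3.91 with EGCG (2.94 to 5.24). It was 1.28 with resveratrol (1.07 to 1.61) and 1.65 with Combination (1.22 to 2.01). Per gene length, the RNA of the decoy thus exceeded that of the signalling receptor in every library, and by least in the groups with resveratrol. This order depends on the division by length. In normalized counts IL1R1 was above IL1R2 with resveratrol (56.4 to 65.9 against 28.9 to 37.6) and with Combination (62.0 to 102 against 45.6 to 56.7). IL1RN to IL1B was 0.242 in NT, 0.263 with EGCG, 0.445 with resveratrol and 0.390 with Combination by the medians. The libraries with resveratrol, alone or combined, lay from 0.329 to 0.538, above all others (0.206 to 0.316).

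Against the sum of IL1A and IL1B, where IL1A makes up most of the RNA, IL1RN was at 0.0241 in NT, 0.0264 with EGCG, 0.0364 with resveratrol and 0.0314 with Combination, and these ranges overlapped between NT and both groups with resveratrol. IL18 to IL1B was 1.00 in NT (0.886 to 1.21) and 1.15 with EGCG (0.988 to 1.37), and rose to 4.08 with resveratrol (3.60 to 4.38) and 3.25 with Combination (2.42 to 3.74). IL36RN to IL36G was 0.795 in NT, 0.860 with EGCG, 0.648 with resveratrol and 0.484 with Combination, with overlap among all groups.

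**Figure D3:**
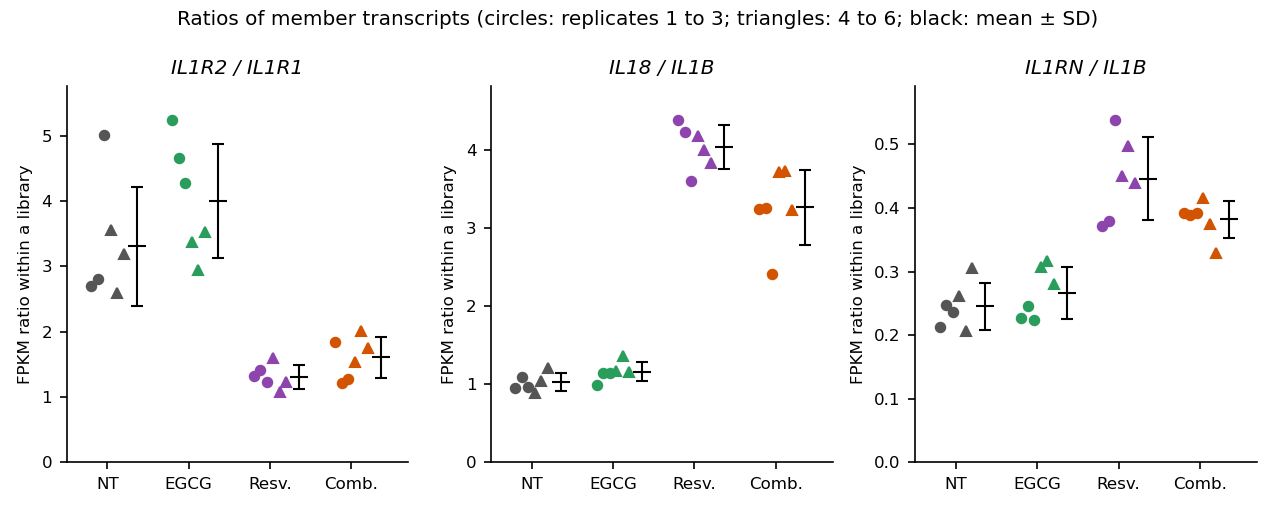
Ratio of FPKM values within each library (y axis, linear from 0), with 1 point per library (circles for replicates 1 to 3, triangles for 4 to 6) and the mean ± SD of 6 in black, for IL1R2 to IL1R1, IL18 to IL1B and IL1RN to IL1B. IL1R2 to IL1R1 is lowest in the groups with resveratrol (medians 1.28 and 1.65), and IL18 to IL1B is highest there (4.08 and 3.25).

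Neighbours on chromosome 2 did not share a direction. Within the ligand cluster IL1A, IL1B and IL1RN fell with resveratrol and with Combination, while IL36G, between them, was higher with Combination. Of the remaining family ligands there, IL37, IL36A, IL36B and IL1F10 had between 3 and 80 counts summed over all libraries, too few to test. The flanking gene CKAP2L, a mitotic spindle gene next to IL1A, was lower (-0.38 ± 0.04 with resveratrol and -0.51 ± 0.04 with Combination on the log2 scale). PSD4, beyond IL1RN, was higher (0.24 ± 0.04 and 0.14 ± 0.04). Beside the receptor genes, IL1RL2, the IL-36 receptor, was higher with resveratrol (0.41 ± 0.14) and with Combination (0.51 ± 0.14), as IL1R1 was. MAP4K4, on the other side of IL1R2, was within 0.04 of 0 in both.

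**Figure D4:**
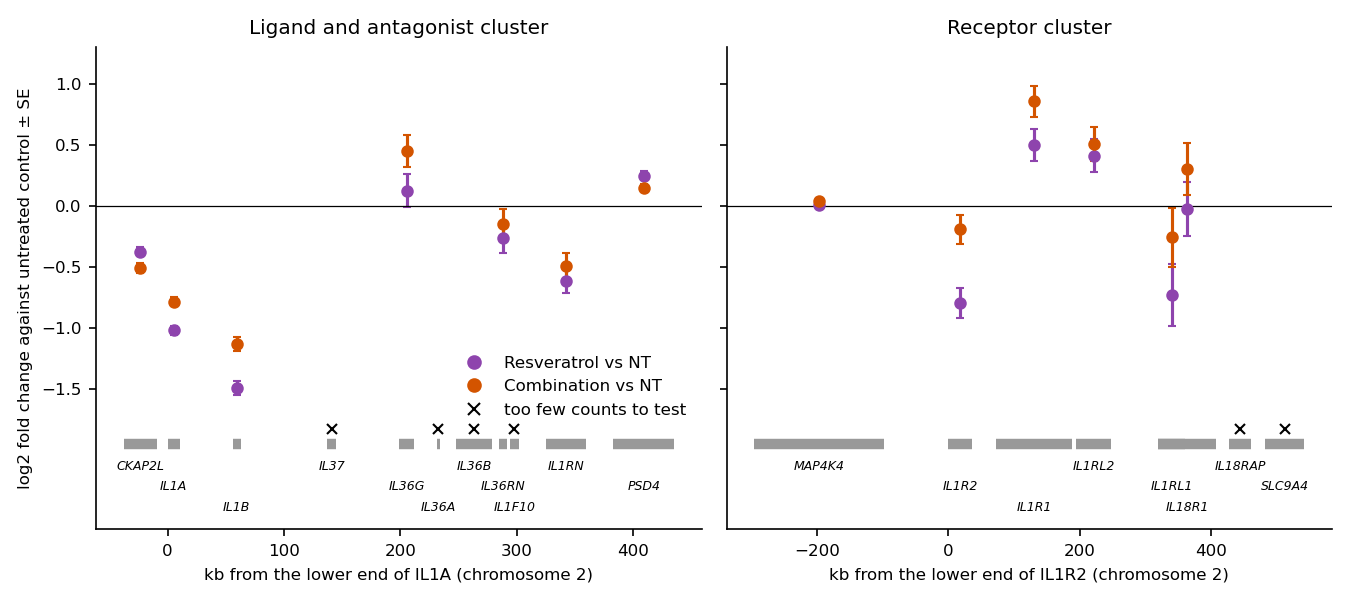
Log2 fold change against NT (y axis) of each tested gene in resveratrol and Combination, ± SE, plotted at the middle of the gene by distance in kb from the lower end of IL1A (ligand cluster) or IL1R2 (receptor cluster). Grey bars are the genes, and crosses mark those too low to test. Genes with higher and with lower values are interspersed along both clusters.

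Among 12 further members of the family, 5 had enough counts. With EGCG 0 of 5 passed with edgeR (0 at an unadjusted p under 0.05, and 0 with DESeq2). With resveratrol 2 rose and 1 fell, or 60.0% against 58% of all genes, and with Combination 2 rose, or 40.0% against 60.7%. SIGIRR, a receptor that dampens IL-1 and Toll-like receptor signals, was higher with resveratrol (0.57 ± 0.08, adjusted p = 5.88e-08, edgeR with BH) and with Combination (0.55 ± 0.08). IL1RL1, the IL-33 receptor, was lower with resveratrol (-0.73 ± 0.25, adjusted p = 0.0142, edgeR with BH) at 15.1 normalized counts in NT and 9.16 with resveratrol. It overlaps IL18R1 on the same strand, so reads of the 2 genes may be mixed. IL18R1, the IL-18 receptor, and IL18BP, which binds IL-18 in solution, did not pass in any comparison with NT.

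Genes of processing and release were mostly higher with resveratrol. Of 21 tested of 28 listed, 14 rose and 3 fell with resveratrol (median log2 fold change 0.24, against 0.00 over all genes), so that 81.0% were called against 58% of all genes (29.4% higher and 28.6% lower). With Combination 15 rose and 2 fell (median 0.26), which is 81.0% against 60.7% (30.4% higher and 30.3% lower). With EGCG 0 of 21 passed with edgeR, 4 had an unadjusted p under 0.05, and DESeq2 called 0. NINJ1, which ruptures the plasma membrane in lytic cell death, rose from 70.4 ± 13.02 normalized counts in NT to 157 ± 18.9 with resveratrol and 163 ± 15.4 with Combination (mean ± SD, n = 6). The inflammasome sensor NLRP1 rose by 0.77 ± 0.05 and 0.73 ± 0.05 on the log2 scale, and CASP1, the protease that cleaves IL-1β and IL-18, by 0.48 ± 0.10 and 0.56 ± 0.10. CARD16 rose by 1.11 ± 0.18 and 1.02 ± 0.19, but it is closely similar to CASP1 and its reads are of uncertain origin. CAPN2, a calpain of the kind that trims the IL-1α precursor, fell (-0.36 ± 0.03 and -0.32 ± 0.03), as did S100A13, which takes part in IL-1α export (-0.15 ± 0.07 and -0.16 ± 0.07).

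Of 23 tested genes of receptor-proximal signalling, out of 25 listed, 9 rose and 3 fell with resveratrol, and 9 rose and 4 fell with Combination, with medians of 0.06 and 0.00. The shares called, 52.2% and 56.5%, were below the 58% and 60.7% of all genes. With EGCG 0 of 23 passed with edgeR, 1 had an unadjusted p under 0.05, and DESeq2 called 0. IRAK2, a kinase of the receptor complex, rose by 0.78 ± 0.15 with resveratrol and 1.17 ± 0.14 with Combination, while IRAK1 fell (-0.24 ± 0.03 and -0.26 ± 0.03). The ubiquitin ligase PELI1 rose by 0.54 ± 0.08 and 0.63 ± 0.08, the TRAF6 partner TIFA by 0.41 ± 0.06 and 0.53 ± 0.06, and the kinase MAP3K3 by 0.43 ± 0.07 and 0.48 ± 0.07. The ubiquitin-conjugating enzyme UBE2N fell (-0.34 ± 0.04 and -0.43 ± 0.04), as did the kinase MAP2K3 (-0.14 ± 0.03 and -0.09 ± 0.03). UBE2V1, the partner of UBE2N, fell with Combination (-0.34 ± 0.13).

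Genes that IL-1 is known to induce in epithelial cells were mostly higher with both agents, beside lower IL1A and IL1B. Of the 35 genes listed, 34 were matched to the count table and 30 were tested. Of those tested, 25 rose and 2 fell with Combination (median 0.69, against 0.00 over all genes). With resveratrol 14 rose and 6 fell (median 0.28), and with EGCG 5 rose and 1 fell. The shares called were 90.0% with Combination, 66.7% with resveratrol and 20.0% with EGCG, against 60.7%, 58% and 2.21% of all genes. CXCL8, the neutrophil chemokine IL-8, stood at 50.3 ± 7.72 normalized counts in NT, 63.9 ± 7.94 with EGCG, 119 ± 24.9 with resveratrol and 191 ± 20.7 with Combination. Its log2 fold change was 1.25 ± 0.12 with resveratrol and 1.92 ± 0.11 with Combination (adjusted p = 3.90e-19, edgeR with BH). BIRC3, an inhibitor of apoptosis and a target of NF-κB, rose by 0.46 ± 0.09 with EGCG (adjusted p = 0.00291, edgeR with BH), 0.88 ± 0.09 with resveratrol and 1.58 ± 0.08 with Combination. SAA1, an acute phase protein, rose by 0.74 ± 0.16 (adjusted p = 0.00791, edgeR with BH), 1.19 ± 0.15 and 1.72 ± 0.14. SAA2 is near-identical to SAA1, so the split of reads between them is uncertain.

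Lower values on the same list included matrix metalloproteinases. MMP3 was lower with EGCG (-0.52 ± 0.12, adjusted p = 0.0123, edgeR with BH), resveratrol (-1.48 ± 0.14) and Combination (-0.98 ± 0.13), and MMP1 was lower with resveratrol (-0.32 ± 0.08) and Combination (-0.28 ± 0.08). MMP9, named after its values were seen, was lower with resveratrol (-0.60 ± 0.19) but not called with EGCG (0.34 ± 0.17) or Combination (-0.03 ± 0.18). The other genes that rose with EGCG, named after their values were seen, were the NF-κB pathway genes NFKB2 (0.21), TNIP1 (0.20) and TNFAIP3 (0.19). These lists were drawn up with earlier results of these libraries known and overlap with NF-κB targets, so their counts are descriptions.

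**Figure D5:**
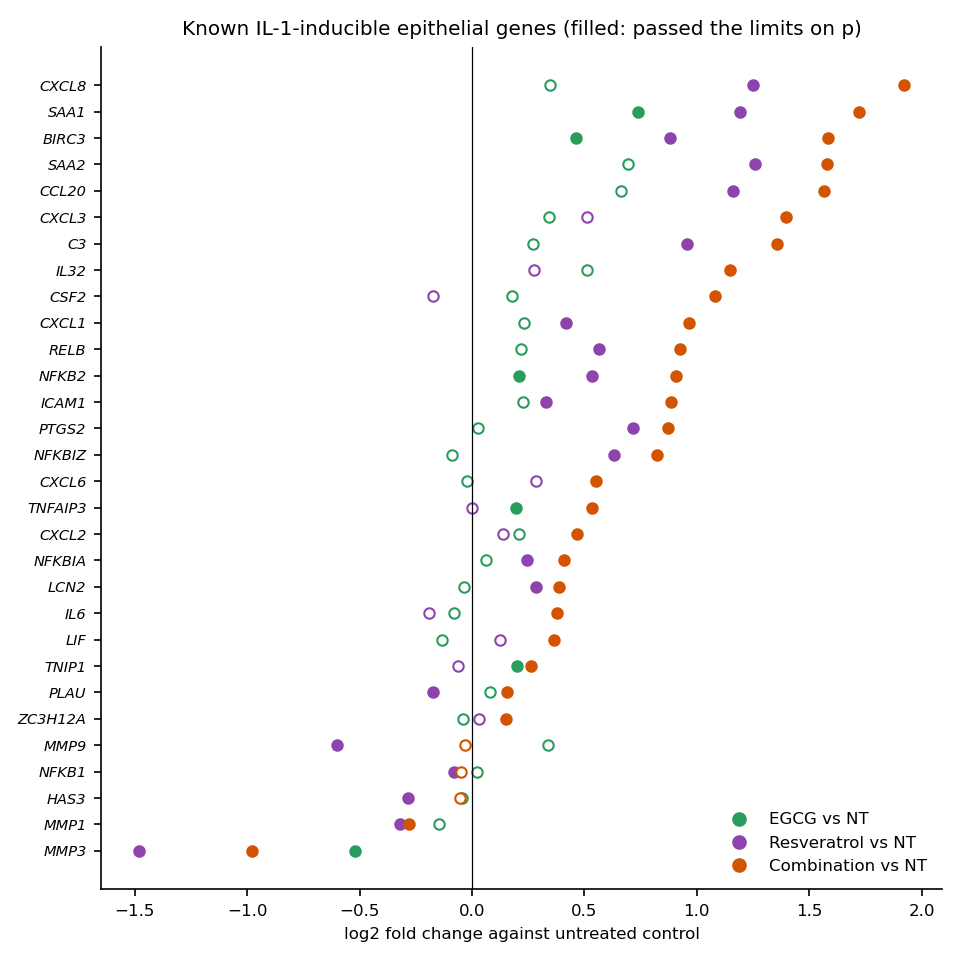
Log2 fold change against NT (x axis) for the 30 tested genes on the list of genes known to be induced by IL-1 in epithelial cells, with 1 point each for EGCG, resveratrol and Combination, filled where it passed the limits. CXCL8 lies furthest to the right with Combination (1.92), and MMP3 furthest to the left with resveratrol (-1.48).

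Finally, the genes whose pattern over the 24 libraries was most like each member were found by Pearson's r of log2 CPM, after the mean of each set of replicates was subtracted. The 24 points share group means, so these are descriptions. For IL1A they were IL1B (0.988), NRG1 (0.983) and FAM83C (0.983), and for IL1B they were FAM83C (0.990), IL1A (0.988) and PRMT5 (0.983). For IL1RN they were JMJD6 (0.924), AGAP1 (0.899) and PRMT5 (0.899). IL18 was nearest to MIA2 (0.956), LIPA (0.941) and MTHFD2 (0.940). IL1R1 was nearest to SIDT2 (0.894), ANGPTL4 (0.893) and TICAM1 (0.888), and KRT18 (0.902) and the pseudogene GAPDHP1 (0.899) were among those nearest to IL1R2. For the remaining 3 the nearest gene was less alike, namely ASPH for IL1RAP (0.816), ZNF444 for IL36G (0.794) and POTEKP for IL36RN (0.738). Once the mean of each group within each set was removed too, r between IL1A and IL1B was 0.411. By the same measure r was 0.588 between IL1A and IL18 and 0.559 between IL1A and IL1RAP. The value for IL1A and IL1B was thus not the highest for IL1A among the members.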

How the data were processed

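Stranded mRNA libraries of 24 samples were made by the authors, trimmed with Trimmomatic 0.36 and aligned to GRCh38 with HISAT2 2.0.4 (versions from the submitters' processing notes). The counting program, annotation release and strand setting are not given in the sources used here. The authors deposited raw counts per gene, normalized counts (a signal, the counts divided by 1 size factor per library) and FPKM values (normalized counts divided by gene length). Tests used the raw counts, values per library the normalized counts, and levels between genes and ratios the FPKM values.

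Counts of all 24 libraries (7034872 to 11735574 in total, which limits precision most for genes with few counts) were fitted in edgeR 4.0.16 (R 4.3.3) with TMM, the filterByExpr filter, the 4 groups and a term for replicates 1 to 3 against 4 to 6, and tested by the quasi-likelihood test with Benjamini-Hochberg adjustment over 15476 genes. Genes were called at an adjusted p under 0.1 and p under 0.05. The steps were tested on simulated data. Positions are from GENCODE v44 and promoters from RefSeq, which had an entry for 9 of 10 members.

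The members, lists and the set term were chosen with earlier results of these data known. Genes named beside the members were, by rule, the tested further family members, up to 4 genes per list and direction with the largest change among those called with Combination, the chromosome 2 neighbours, and the 3 genes most like each member, of which 1 gene is not reported here and, for the 3 members with the weakest likeness, only the nearest is named. Alternatives were DESeq2 1.42.0, other scalings, filters and limits, the fit without the set term, the replicate number as a block, only the groups compared, each library left out, and each set of replicates alone. The qPCR, protein and mouse experiments of the study were not analysed here.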

Additional observations from a re-analysis of the deposited data

Results flagged for a closer look

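IL18 in Combination replicate 3 stood at 388 normalized counts, and the nearest of the other 5 Combination libraries at 511. The gap was 0.823 of the whole range of the group. It passed Dixon's 95% limit for such a gap, which by its definition about 1 in 20 groups would pass by chance, and was the only one to do so among 36 groups looked at (9 genes in 4 groups of 6). Without it the log2 fold change of IL18 with Combination was 0.60 in place of 0.52.

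The EGCG change of IL1A differed with and without resveratrol, by 0.31 on the log2 scale (adjusted p = 0.000937, interaction term, edgeR with Benjamini-Hochberg adjustment). That of IL1B differed by 0.45 (adjusted p = 0.00341). In both genes the EGCG value alone was slightly below NT, without passing and with libraries that overlapped NT. The value beside resveratrol was above resveratrol.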

How the results depend on the processing

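Of the 9 members, the single call with EGCG became 0 with DESeq2, with genes of at least 1 count, at an adjusted p under 0.05, with a 1.5-fold limit, and in either set of replicates alone, and lay between 0 and 1 with each library left out. A 1.5-fold limit left 4 of 7 with resveratrol, 3 of 6 with Combination, 1 of 4 for Combination against resveratrol, 3 of 7 for Combination against EGCG and 0 of 2 for the interaction. Each set of replicates alone left 2 of 4 for Combination against resveratrol. The interaction count was 1 without the set term, where IL1A had an adjusted p of 0.106, and 0 in replicates 1 to 3. Among 79 pathway genes, 6 were called with EGCG, 52 with resveratrol and 59 with Combination, where 2.21%, 58% and 60.7% of all genes were. These became 1, 17 and 21 with a 1.5-fold limit, and with EGCG 3 in replicates 1 to 3 and 2 in replicates 4 to 6.

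No called member changed sign. Values that were not called did so as follows, on the log2 scale. In replicates 1 to 3 alone, IL1B was 0.019, IL36G 0.0099 and IL1R1 -0.057 with EGCG, IL1RAP was -0.054 with Combination, and IL18 was -0.055 and IL1RAP -0.027 for Combination against resveratrol. In replicates 4 to 6 alone, IL36G was -0.028 with resveratrol, IL1RN was -0.0069 for Combination against resveratrol, IL1RAP was 0.036 for Combination against EGCG, and the interaction was -0.035 for IL1RN, 0.083 for IL18 and 0.072 for IL1RAP. With library size alone, IL1RAP was 0.058 with resveratrol and 0.031 for Combination against EGCG. With each library left out, IL1RN with EGCG ran from -0.019 to 0.055, IL1RAP for Combination against EGCG from -0.068 to 0.0079, and the interaction from -0.084 to 0.014 for IL18 and from -0.045 to 0.032 for IL1RAP. The cause was not tested. Of 639 member values under other settings, 585 kept call and direction, 38 lost and 2 gained a call, and of 1296 with a library left out 1261 kept both.

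Library size alone raised the share of higher genes among all called from 50.7% to 68.1% with resveratrol and from 50.1% to 64.4% with Combination. The median log2 fold change of all genes moved from 0.0040 to 0.092 with resveratrol and from -0.0015 to 0.081 with Combination. The replicate number as a block changed no call and gave 1, 7, 6, 4, 7 and 2 members called in the 6 comparisons. Same-numbered libraries had correlations of deviations from -0.011 to 0.131, so the numbers were not taken to pair them.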
